A study of Mus musculus with 8 samples.

Results

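Interferon-stimulated genes, those whose transcription is raised by interferons, were described in macrophages that live in the air sacs of the lung, as a set of 40 genes chosen by name. All 40 were found in the deposited count table of 37310 genes, each under 1 gene ID, and all 40 were among the 14537 genes tested. The RNA of 8 libraries was sequenced in bulk, 2 libraries for each of 4 groups, and each library was a pool of 3 according to the labels. The exAM group held alveolar macrophages of C57BL/6 mice that had been expanded outside the body for 2 months and were not sorted. The texAM group held expanded cells of the same strain that had then been instilled into the airways of C57Bl/6-Ly5.1 mice and were sorted from the lung after 4 months. The tAM group held transplanted C57BL/6 cells, for which the labels name no expansion, sorted from C57Bl/6-Ly5.1 lungs likewise after 4 months. The HostAM group held the resident cells of C57Bl/6-Ly5.1 mice. The lung cells were sorted as live SiglecF+ CD11c+ cells carrying CD45.2 (texAM and tAM) or CD45.1 (HostAM), the allele of the CD45 surface protein that tells donor from recipient. The labels give an age of 8 weeks for the mice of all groups. This cannot be the age of the texAM and tAM recipients at sorting, which came 4 months after transfer. That the groups were of equal age at sampling is thus not shown. The sources used here do not give how long the texAM cells were grown before transfer, or whether the HostAM mice had been instilled with cells or with buffer alone.

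Type I interferons bind the receptor pair IFNAR1 and IFNAR2, whose kinases JAK1 and TYK2 phosphorylate STAT proteins, STAT2 among them. With IRF9, STAT2 is part of the factor ISGF3, which binds the interferon-stimulated response element (ISRE), while type II interferon acts at the gamma-activated site (GAS). The products include RNA sensors, enzymes and membrane proteins that limit viruses, and chemokines that draw lymphocytes; alveolar macrophages are among the main producers of type I interferon in infected lung.

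The libraries held 6546272 (exAM replicate 1) to 9154128 (texAM replicate 1) counts. The summed level of 10 alveolar macrophage markers was 3630 to 4260 CPM (counts scaled to a common effective library size) in exAM and 2830 to 3320 CPM in the lung groups, with none of the 10 at 0. The raw counts of some of them hardly varied with library size, such as Chil3 with 2135 to 2208 in every library. Such genes have a higher CPM in the smaller exAM libraries without more counts. Marco did have more, 3034 and 3053 in exAM and 1824 to 2224 in the lung libraries. The sum thus shows that the markers were present, not that exAM had more of them. The summed level of 11 epithelial markers was 2.78 to 7.37 CPM in exAM, against 399 to 655 CPM in the lung libraries. The sum of 13 lymphocyte markers was 3.94 to 5.71 CPM in exAM, with the T cell marker Cd3e at 0, against 175 to 226 CPM in texAM, 57.1 to 114 CPM in tAM and 23.1 to 88.6 CPM in HostAM. The sum of 6 monocyte markers was 3.40 to 4.97 CPM in exAM and 22.4 to 83.1 CPM in the lung libraries, and that of 9 dendritic cell markers was 104 to 118 CPM in exAM and 141 to 244 CPM in the lung libraries. Within that list Clec9a had 64.5 and 48.6 CPM in exAM and 18.4 to 34.9 CPM in the lung libraries, while Flt3 and Ccr7 had 0 counts in exAM. The sum of 9 endothelial and stromal markers ran the other way. It was 51.3 to 62.2 CPM in exAM and 1.28 to 7.99 CPM in the lung libraries. Of it, Cdh5 had 28.6 and 17.8 CPM in exAM, Pdgfra 19.6 and 41.5 CPM and Kdr 1.89 and 2.62 CPM. Pecam1 had 1.2 and 0.309 CPM in exAM against 5.85 and 7.53 CPM in texAM. Cldn5, Col1a1, Col1a2, Col3a1 and Pdgfrb had 0 counts in exAM and few or none in the lung libraries. The sum of 7 neutrophil markers was 164 to 287 CPM in exAM and 114 to 229 CPM in the lung libraries. Of it, Mmp8 had 223 and 119 CPM in exAM and S100a8 63.6 and 44.8 CPM. S100a9 went the other way, with 2 counts in exAM, 845 in texAM, 128 in tAM and 171 in HostAM. The Y-linked gene Ddx3y had 55 and 59 counts in exAM and 0 counts in each of the 6 lung libraries. Xist, an X-linked transcript of female cells, had 801 and 1060 CPM in exAM and 1330 to 1760 CPM in the lung libraries. These differences lie along the same contrast as every comparison of exAM below, and their part in the results was not tested. In bulk RNA, fewer cells of a type and less RNA per cell cannot be told apart.

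The 40 genes covered a wide range of levels, here given per kilobase (kb) of the longest annotated transcript so that genes can be compared. In HostAM the highest mean levels were 82.1 CPM per kb for Trim25, a ubiquitin ligase that acts with the RNA sensor RIG-I, and 79.9 CPM per kb for Slfn2, a Schlafen protein that maintains quiescence in T cells. Stat2, the STAT of the ISGF3 factor, followed with 46.6 CPM per kb, Ddx58, which encodes RIG-I itself, with 35.2 CPM per kb, and Ifi35, whose product binds the protein NMI, with 34.9 CPM per kb. The lowest were Mx2, a dynamin-like GTPase, with 0.139 CPM per kb and Ifi44, a cytoplasmic protein of the response, with 0.537 CPM per kb. Of all 40, Mx2 had the fewest counts over the 8 libraries, 39 in all, and Ifi44 had 59. Isg15, the ubiquitin-like protein that is often used as a readout of the response, stood at 6.67 CPM per kb in exAM, 4.21 in texAM, 5.83 in tAM and 10.8 in HostAM.

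**Figure D1:**
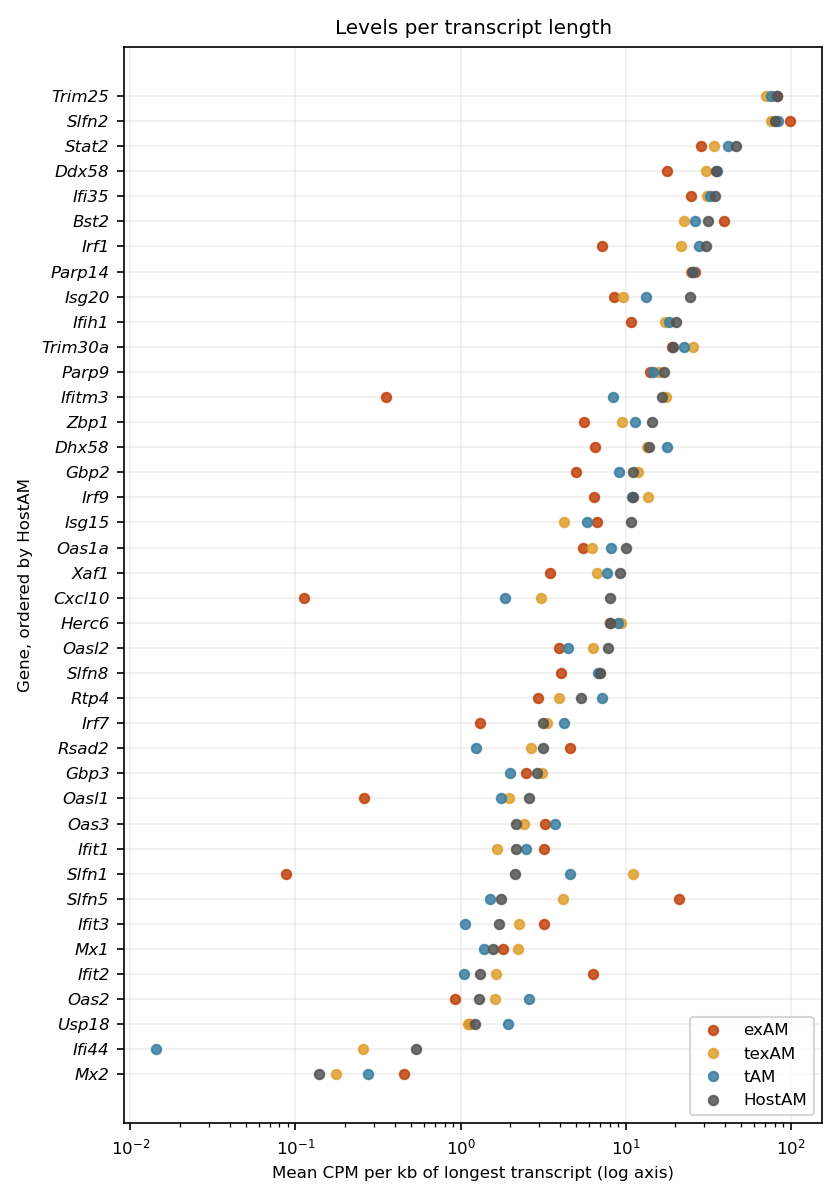
Mean level of each of the 40 genes per transcript length (CPM per kb of the longest annotated transcript, log axis) in exAM, texAM, tAM and HostAM, 2 libraries each, with genes ordered by their HostAM level. Trim25 and Slfn2 lie at the top in all 4 groups, Cxcl10, Ifitm3, Oasl1 and Slfn1 lie far to the left in exAM, and Slfn5 and Ifit2 lie to the right in exAM; Ifi44 has no exAM point because it had 0 counts there.

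Relative to each gene's mean over the 8 libraries, the median of the 40 genes was -0.36 and -0.49 log2 in the 2 exAM libraries. It was 0.13 and 0.01 in texAM, 0.14 and 0.06 in tAM, and 0 and 0.32 in HostAM, while the median over all tested genes lay between -0.07 and 0.04 in every library. The exAM libraries were thus the lowest of the 8 by this measure. The set did not move as 1 block, since single genes went far in either direction.

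**Figure D2:**
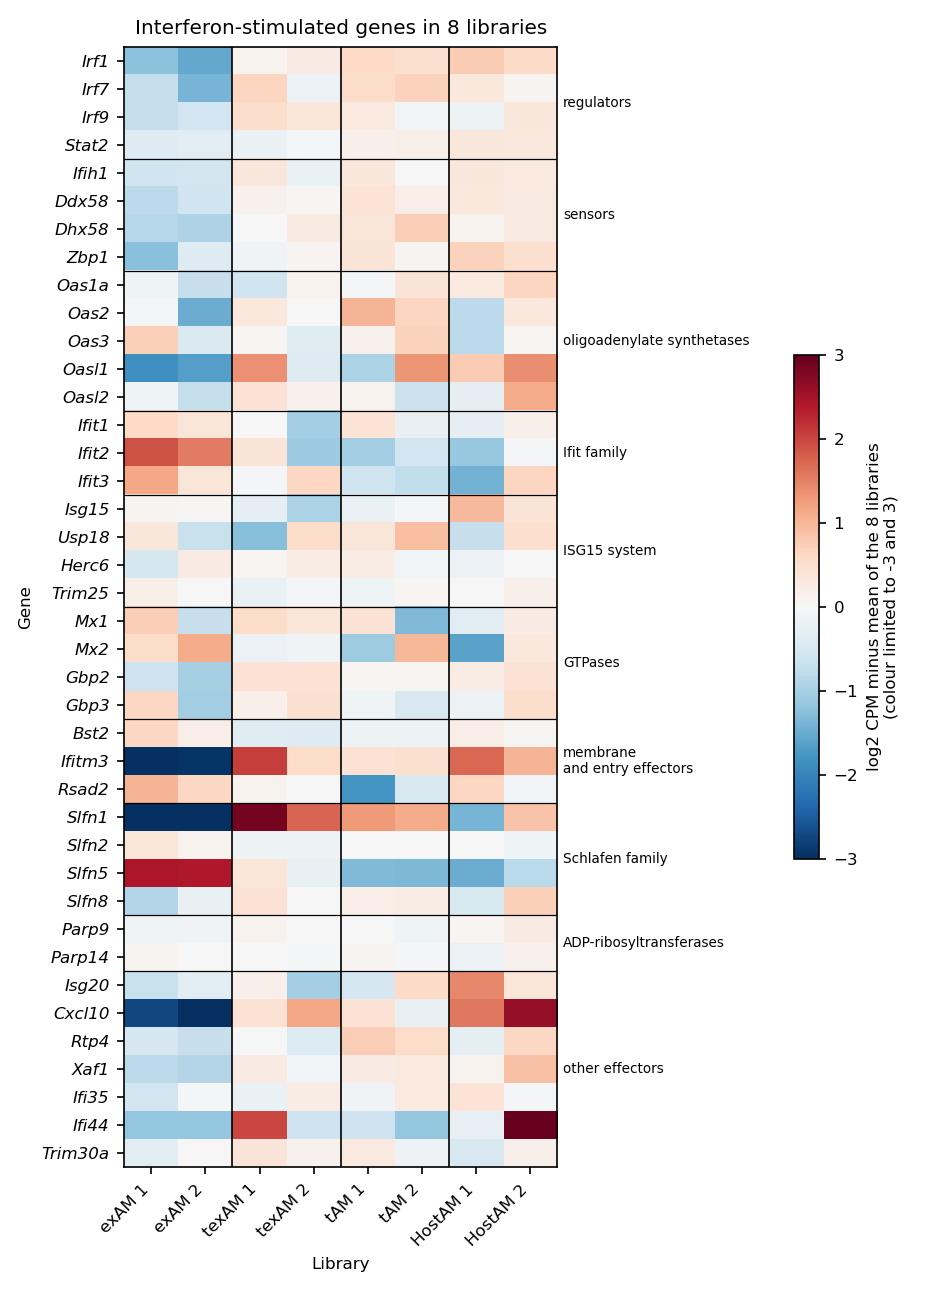
Level of each of the 40 genes in each of the 8 libraries as log2 CPM minus the gene's mean over the 8 libraries (colour limited to -3 and 3), with genes grouped by role. The regulators and RNA sensors at the top are low in both exAM libraries, while Ifit2, Rsad2 and Slfn5 are high there.

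Expanded cells were compared with tAM and with HostAM to ask how the set differed between cultured cells and cells from lung, groups that also differed in sorting, Y-linked transcripts and other-cell markers and, for HostAM, in strain. Against tAM, 15 of the 40 genes were called lower in exAM (37.5%) and 3 were called higher (7.5%) at a Benjamini-Hochberg adjusted p under 0.05 in edgeR's quasi-likelihood test. Over all tested genes, 23.2% were called lower and 21.5% higher in this comparison. The median log2 change of the 40 was -0.56, against -0.09 over all tested genes, and -0.54 without Ifi44, which had 0 counts in exAM and 1 count in tAM. Against HostAM, 15 were called lower (37.5%) and 2 higher (5%), where 23.3% and 20.9% of all tested genes were called, and the median log2 change was -0.70, also with Ifi44 set to its bound of at least 8.78-fold, against -0.08 over all genes. Both comparisons use the same exAM libraries and are not independent of each other. Scaling by library size alone moved the median of all genes to -0.29 against tAM and -0.26 against HostAM and the share of higher genes among all calls to 34.5% in place of 48% and to 35.2% in place of 47.3%. The 40 genes then split into 3 higher and 16 lower against tAM and 2 higher and 17 lower against HostAM. The p-values rest on the spread between pools within groups, estimated over the 4 groups together. Nothing in the labels says that pools came from separate experiments.

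The 4 regulators were all lower in exAM, in both comparisons. Irf1, a transcription factor that is itself induced by interferon and drives many of the other genes, lies on chromosome 11 (GRCm38 chr11:53770014-53778374, plus strand). Irf1 stood at 17.2 and 13.7 CPM in exAM, 44.0 and 47.9 CPM in texAM, 61.7 and 56.4 CPM in tAM, and 69.6 and 60.7 CPM in HostAM. The exAM libraries lay well below all the others, and the texAM libraries lay between them and the tAM and HostAM libraries, with no overlap. The log2 change of Irf1 in exAM was -1.94 ± 0.20 (SE) against tAM (edgeR adjusted p = 3.15e-05) and -2.08 ± 0.20 against HostAM (adjusted p = 2.07e-05). A RefSeq promoter window of the gene, 250 bases before to 50 after its start, is shown because Irf1 had the smallest adjusted p of the genes that were lower, and it holds 1 GAS match in capitals, which begins 90 bases before the start of the transcript (chr11:53769764-53770063, GRCm38.p6, plus strand).
Irf1: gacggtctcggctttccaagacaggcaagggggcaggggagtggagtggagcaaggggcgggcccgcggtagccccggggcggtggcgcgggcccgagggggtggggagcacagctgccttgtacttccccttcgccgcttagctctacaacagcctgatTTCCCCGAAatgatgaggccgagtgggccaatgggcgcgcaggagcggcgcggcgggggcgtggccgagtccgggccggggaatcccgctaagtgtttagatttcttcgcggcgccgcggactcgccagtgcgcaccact

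Irf7, the factor that amplifies type I interferon production, had 5.32 and 3.24 CPM in exAM, 13.9 and 7.76 CPM in texAM, 13 and 14.5 CPM in tAM, and 11.1 and 9.44 CPM in HostAM. Both exAM libraries lay below the lowest lung library, and texAM overlapped both other lung groups, while the tAM libraries lay above those of HostAM. The log2 change in exAM was -1.69 ± 0.43 against tAM (edgeR adjusted p = 0.00966) and -1.27 ± 0.43 against HostAM (adjusted p = 0.0357). Stat2 and Irf9, which encode parts of ISGF3, are named although they fall outside the rule for genes given by library, and were chosen after their values were seen. Stat2 had 124 and 128 CPM in exAM, 143 and 159 CPM in texAM, 181 and 185 CPM in tAM, and 206 and 204 CPM in HostAM. The 4 groups did not overlap for Stat2, with exAM lowest and HostAM highest. Its log2 change in exAM was small, -0.54 ± 0.10 against tAM and -0.70 ± 0.10 against HostAM (edgeR adjusted p = 0.00182 and 0.000356). Irf9, the DNA-binding part of ISGF3, averaged 24.9 ± 1.72 CPM in exAM (SD, n = 2), against 42.0 ± 7.51 CPM in tAM and 42.4 ± 10.1 CPM in HostAM, and its log2 change was -0.76 ± 0.23 and -0.77 ± 0.23 (edgeR adjusted p = 0.0212 and 0.0202).

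The 4 sensors of foreign nucleic acid were also all lower in exAM in both comparisons, with a median log2 change of -1.0 against tAM and -1.04 against HostAM. Dhx58 encodes LGP2, an RNA helicase that modulates the other sensors. Dhx58 had 15.9 and 15.3 CPM in exAM, 29.4 and 35.4 CPM in texAM, 37.8 and 48.7 CPM in tAM, and 31.6 and 35 CPM in HostAM. Every lung library was higher than both exAM libraries. The texAM and HostAM libraries overlapped, and those of tAM lay above them. In exAM its log2 change was -1.47 ± 0.23 against tAM and -1.09 ± 0.23 against HostAM (edgeR adjusted p = 0.000541 and 0.0033). Zbp1, a sensor of Z-form nucleic acid that can start necroptosis, had 13.2 and 24.2 CPM in exAM, 29.3 and 33.7 CPM in texAM, 41.9 and 33.9 CPM in tAM, and 51.3 and 44.5 CPM in HostAM. The exAM libraries were again the lowest, though they differed more between themselves than for Dhx58. The log2 change in exAM was -1.01 ± 0.28 against tAM and -1.35 ± 0.28 against HostAM (edgeR adjusted p = 0.0147 and 0.00329).

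The RNA helicases Ddx58 (RIG-I) and Ifih1 (MDA5), which recognise viral RNA and signal through MAVS, are described in full after their values were seen, as the best known of the sensors. Ddx58 had 64.3 and 74.0 CPM in exAM, 123 and 116 CPM in texAM, 148 and 128 CPM in tAM, and 139 and 134 CPM in HostAM. No lung library came near the exAM libraries. The log2 change of Ddx58 in exAM was -1.0 ± 0.13 against tAM and -0.98 ± 0.13 against HostAM (edgeR adjusted p = 0.000189 and 0.000219). Ifih1 averaged 59.1 ± 1.36 CPM in exAM (SD, n = 2), against 101 ± 16.7 CPM in tAM and 110 ± 3.07 CPM in HostAM, with log2 changes of -0.77 ± 0.19 and -0.90 ± 0.19 (edgeR adjusted p = 0.00824 and 0.00352). The promoter window of Ddx58 holds an ISRE match that begins at base 3 of the transcript, read on the other strand (chr4:40239776-40240075, GRCm38.p6, minus strand); it is shown as the sensor with the smallest adjusted p.
Ddx58: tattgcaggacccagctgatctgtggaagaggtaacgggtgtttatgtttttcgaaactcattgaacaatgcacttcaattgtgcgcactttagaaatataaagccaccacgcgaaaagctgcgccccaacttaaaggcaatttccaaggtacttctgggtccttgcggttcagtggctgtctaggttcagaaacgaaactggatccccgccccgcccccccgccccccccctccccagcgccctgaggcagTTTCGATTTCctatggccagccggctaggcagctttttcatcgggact

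**Figure D3:**
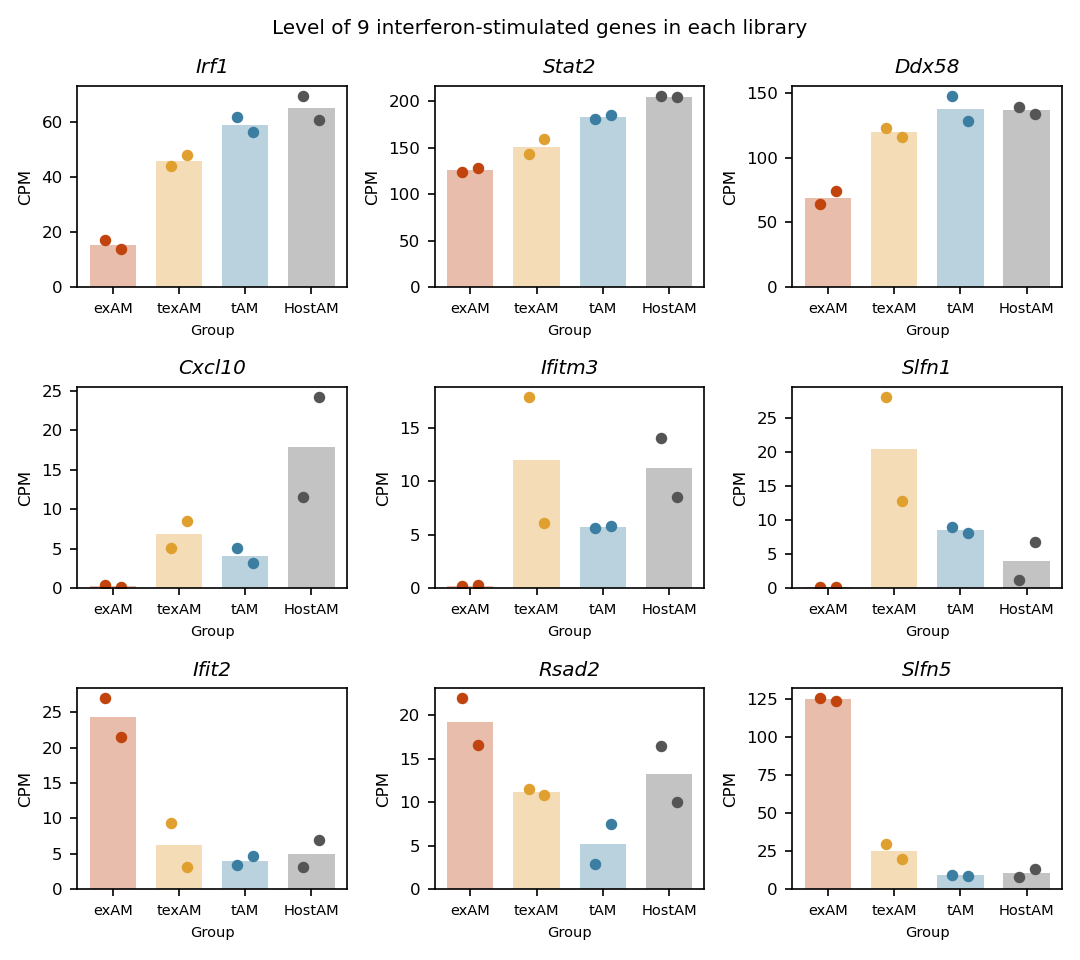
Level (CPM) of 9 of the genes in each library, with exAM, texAM, tAM and HostAM from left to right; points are libraries and bars are means of 2. Irf1, Stat2 and Ddx58 are lowest in exAM, Cxcl10, Ifitm3 and Slfn1 are near 0 there, and Ifit2, Rsad2 and Slfn5 are highest there.

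For 3 of the called genes, exAM held almost no reads, at most 3 counts over both libraries. Ifi44, with 0 counts in exAM, was not called. Cxcl10, a chemokine that draws T cells and NK cells through CXCR3, had 0.343 and 0.154 CPM in exAM, 3 counts over both libraries. It had 5.12 and 8.56 CPM in texAM, 5.11 and 3.13 CPM in tAM, and 11.5 and 24.3 CPM in HostAM. All lung libraries were above exAM, and HostAM lay above the other lung groups. As a ratio of counts, Cxcl10 was 17.1-fold higher in tAM than in exAM (95% counting interval 5.6 to 84.8) and 72.8-fold higher in HostAM (24.7 to 355), with edgeR adjusted p = 0.00216 and 0.000124. These intervals, like all of this kind below, cover counting error only.

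Ifitm3, a membrane protein that blocks the entry of influenza virus into the cell, had 0.172 and 0.309 CPM in exAM, again 3 counts in all. It had 17.9 and 6.05 CPM in texAM, 5.57 and 5.77 CPM in tAM, and 14.0 and 8.52 CPM in HostAM. The lung groups were all far above exAM, and the texAM and HostAM libraries overlapped each other and lay above those of tAM. The ratio of counts was 23.2-fold in favour of tAM (7.71 to 115) and 46.4-fold in favour of HostAM (15.7 to 227), with edgeR adjusted p = 0.00143 and 0.000378. Slfn1, a Schlafen gene first described in thymocytes, had 2 counts over the exAM libraries, 0.172 and 0.154 CPM, and 28.2 and 12.8 CPM in texAM, 9.05 and 8.15 CPM in tAM, and 1.21 and 6.79 CPM in HostAM. The texAM libraries were the highest, and the HostAM libraries the lowest of those from lung. Slfn1 was 53.0-fold higher in tAM than in exAM (14.4 to 442) and 24.3-fold higher in HostAM (6.47 to 204), with edgeR adjusted p = 0.00164 and 0.00734. The summed lymphocyte markers given above were also higher in texAM than in HostAM; their part in the level of Slfn1 was not tested. The promoter windows of Cxcl10 (chr5:92348840-92349139, minus strand) and Ifitm3 (chr7:141010695-141010994, minus strand), both GRCm38.p6, are shown because these genes had almost no reads in exAM and hold a match; that of Slfn1 holds neither motif. That of Cxcl10 holds 1 ISRE match, which begins 213 bases before the start. That of Ifitm3 holds ISRE matches that begin at bases 3 and 20 of the transcript and a GAS match that begins at base 14 and overlaps the later ISRE match.
Cxcl10: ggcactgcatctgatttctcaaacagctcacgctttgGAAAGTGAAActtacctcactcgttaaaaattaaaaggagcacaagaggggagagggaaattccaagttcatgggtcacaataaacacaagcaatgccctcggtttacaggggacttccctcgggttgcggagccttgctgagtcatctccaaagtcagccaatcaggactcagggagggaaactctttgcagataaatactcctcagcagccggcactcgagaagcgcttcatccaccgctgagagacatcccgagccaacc
Ifitm3: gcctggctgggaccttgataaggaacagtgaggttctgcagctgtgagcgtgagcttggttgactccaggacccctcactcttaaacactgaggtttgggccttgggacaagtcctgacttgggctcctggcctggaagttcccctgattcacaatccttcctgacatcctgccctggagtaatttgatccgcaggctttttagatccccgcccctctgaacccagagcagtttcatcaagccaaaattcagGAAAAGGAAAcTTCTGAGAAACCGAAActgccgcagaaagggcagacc

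The genes that were higher in exAM were Slfn5, Ifit2 and, against tAM only, Rsad2. Slfn5, a large Schlafen protein of the nucleus, lies in the same Schlafen cluster of chromosome 11 as Slfn1 (GRCm38 chr11:82951349-82964840, plus strand). Slfn5 had 126 and 124 CPM in exAM, 29.8 and 19.8 CPM in texAM, 9.05 and 8.90 CPM in tAM, and 8.05 and 13.1 CPM in HostAM. The exAM libraries stood far above the rest, and the texAM libraries were above those of tAM and HostAM without overlap. In exAM its log2 change was 3.8 ± 0.28 against tAM and 3.56 ± 0.28 against HostAM (edgeR adjusted p = 4.61e-06 and 6.73e-06). The gene overlaps an antisense gene, Slfn5os, by 559 bases, which had 0 counts in every library, and 11.8% of the 50-base stretches of its longest transcript also occur in other genes.

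Ifit2, a protein that binds viral RNA and limits its translation, had 27.1 and 21.5 CPM in exAM, 9.40 and 3.19 CPM in texAM, 3.37 and 4.64 CPM in tAM, and 3.09 and 6.91 CPM in HostAM. The exAM libraries were the highest, and the 3 lung groups overlapped. The log2 change in exAM was 2.60 ± 0.57 against tAM and 2.28 ± 0.56 against HostAM (edgeR adjusted p = 0.00425 and 0.00775). Rsad2 encodes viperin, which makes a chain-terminating nucleotide. Rsad2 had 22 and 16.5 CPM in exAM, 11.5 and 10.8 CPM in texAM, 2.90 and 7.52 CPM in tAM, and 16.4 and 10.0 CPM in HostAM. The exAM libraries were above those of tAM, while HostAM came close to them. In exAM its log2 change was 1.89 ± 0.47 against tAM (edgeR adjusted p = 0.00811) and 0.54 ± 0.44 against HostAM, which was not called (adjusted p = 0.341); that these differ was not shown, since tAM against HostAM was not called either (log2 change -1.35 ± 0.46, adjusted p = 0.357). The windows of Slfn5 (chr11:82951852-82952151, plus strand) and Rsad2 (chr12:26456403-26456702, minus strand), GRCm38.p6, are shown beside those of the genes that were lower. They too hold an ISRE match, which begins 155 bases before the start in Slfn5 and 120 bases before it in Rsad2, there on the other strand.
Slfn5: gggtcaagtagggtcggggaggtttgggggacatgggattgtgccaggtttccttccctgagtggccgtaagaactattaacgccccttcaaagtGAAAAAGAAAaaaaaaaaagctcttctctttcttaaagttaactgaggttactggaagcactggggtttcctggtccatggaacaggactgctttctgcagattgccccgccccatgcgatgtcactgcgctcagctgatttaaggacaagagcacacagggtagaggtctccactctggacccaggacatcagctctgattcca
Rsad2: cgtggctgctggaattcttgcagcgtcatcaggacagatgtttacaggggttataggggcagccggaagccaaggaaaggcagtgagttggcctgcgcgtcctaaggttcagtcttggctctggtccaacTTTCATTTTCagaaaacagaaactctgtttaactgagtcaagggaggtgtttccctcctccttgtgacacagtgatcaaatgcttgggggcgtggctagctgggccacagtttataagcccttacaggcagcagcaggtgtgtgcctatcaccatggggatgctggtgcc

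In these windows capitals mark every match to the ISRE core, which is GAAA, then 2 bases of any kind (NN), then GAAA, or the GAS, spelled TTCNNNGAA, on either strand. Of the 40 genes, 31 had a RefSeq promoter window. An ISRE match lay in 17 of them (54.8%), against 3.99% of the 27025 genes with a window, and a GAS match in 7 (22.6%), against 9.55%. Among the 12 genes with a window that were lower in exAM than in tAM, 6 held an ISRE match and 2 a GAS match. Among the 3 that were higher, 2 held an ISRE match and 1, Ifit2, a GAS match, and among the 16 not called 9 held an ISRE match and 4 a GAS match. An ISRE match was thus present in genes of either direction and in genes that were not called. A match is a stretch of letters and was not tested as a binding site.

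The remaining genes called in exAM came from several families. Oasl1, an inactive relative of the oligoadenylate synthetases that in mice restrains translation of Irf7, had 0.515 and 0.618 CPM in exAM, 6.79 and 1.83 CPM in texAM, 1.16 and 6.52 CPM in tAM, and 4.41 and 6.91 CPM in HostAM. It was low in both exAM libraries, 7 counts in all, and uneven within the texAM and tAM groups. The log2 change in exAM was -2.72 ± 1.01 against tAM and -3.28 ± 1.01 against HostAM (edgeR adjusted p = 0.0496 and 0.0234). Gbp2, a guanylate-binding GTPase that attacks the vacuoles of intracellular microbes, had 14.2 and 11.0 CPM in exAM, 30.1 and 29.8 CPM in texAM, 22.9 and 22.9 CPM in tAM, and 25.8 and 29.8 CPM in HostAM. It was lowest in exAM, and the libraries of each lung group were close to each other. In exAM its log2 change was -0.86 ± 0.25 against tAM and -1.14 ± 0.25 against HostAM (edgeR adjusted p = 0.0165 and 0.00387). Xaf1, a factor that promotes apoptosis by opposing XIAP, had 9.26 and 8.80 CPM in exAM, 19.6 and 15.4 CPM in texAM, 19.6 and 20.3 CPM in tAM, and 17.6 and 30.3 CPM in HostAM. The exAM libraries were below all others, and its log2 change was -1.14 ± 0.33 against tAM and -1.41 ± 0.33 against HostAM (edgeR adjusted p = 0.0169 and 0.00603).

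Rtp4 and Isg20 were each called in only one of the comparisons. Rtp4, a receptor-transporting protein, had 5.83 and 5.10 CPM in exAM, 8.46 and 6.27 CPM in texAM, 14.3 and 12.4 CPM in tAM, and 6.83 and 13.1 CPM in HostAM. The tAM libraries were well above exAM, while HostAM replicate 1 lay close to it. The log2 change in exAM was -1.29 ± 0.43 against tAM (edgeR adjusted p = 0.0324) and -0.87 ± 0.43 against HostAM, not called (adjusted p = 0.124). Isg20, an exonuclease that degrades RNA, had 8.23 and 10.3 CPM in exAM, 14.6 and 6.39 CPM in texAM, 9.17 and 19.6 CPM in tAM, and 36.4 and 17.0 CPM in HostAM. HostAM replicate 1 was the highest library, and the other groups overlapped. In exAM its log2 change was -1.52 ± 0.52 against HostAM (edgeR adjusted p = 0.0368) and was not called against tAM (adjusted p = 0.353).

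**Figure D4:**
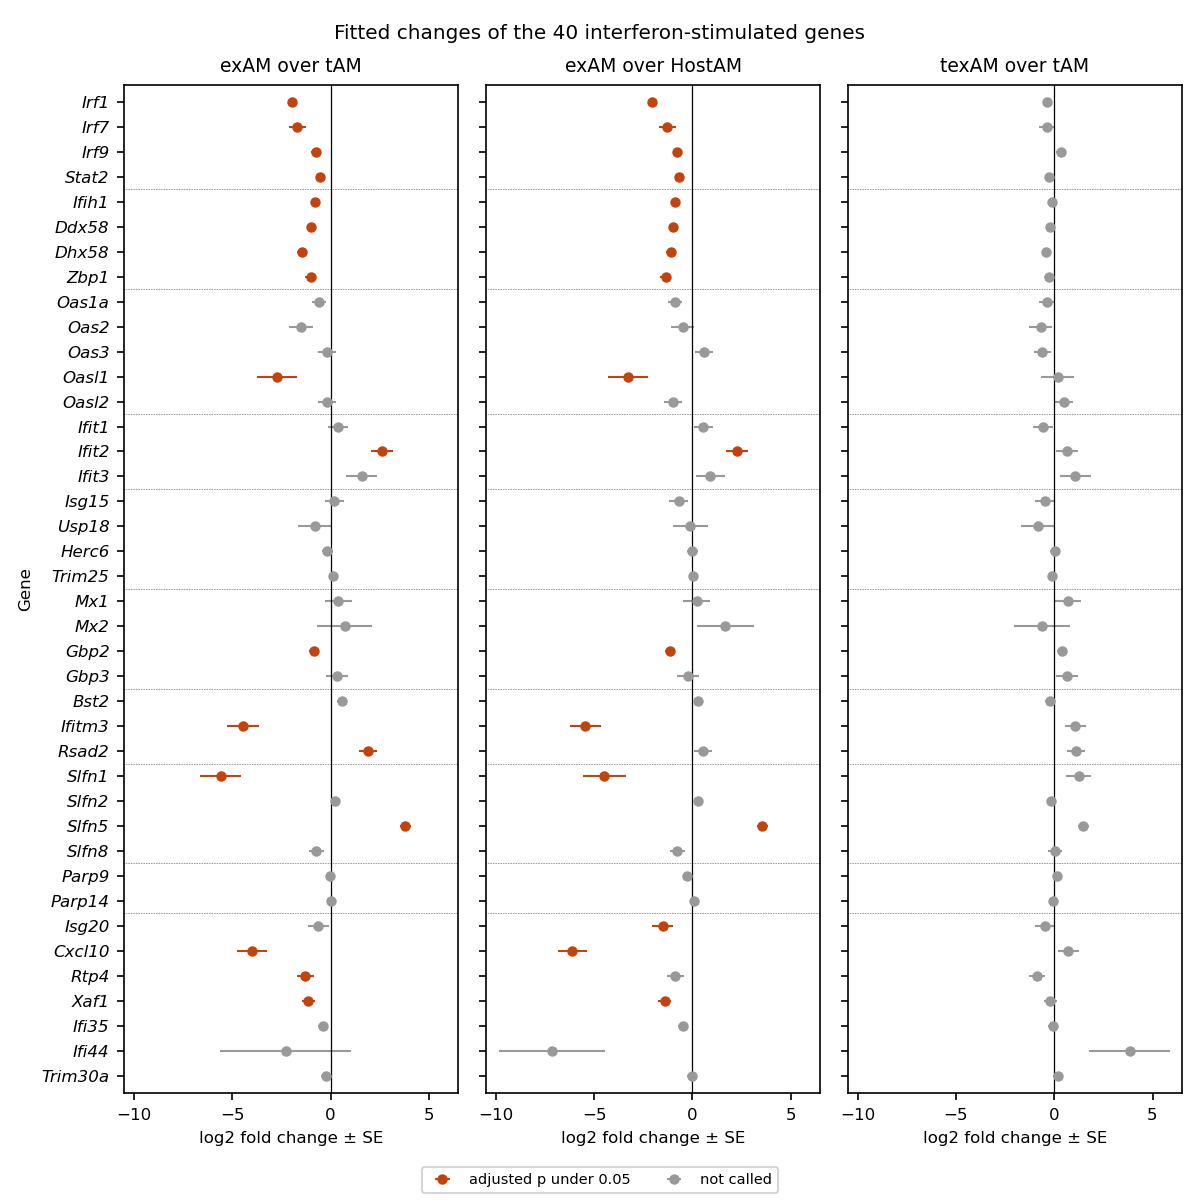
Fitted log2 fold change (± SE) of each of the 40 genes for exAM over tAM, exAM over HostAM and texAM over tAM, with genes called at an adjusted p under 0.05 in orange and the rest in grey. The regulators and sensors lie left of 0 in both exAM panels, and Slfn5 and Ifit2 lie right of 0. No gene is called in the texAM panel. The values of Ifi44 rest on 0 counts in exAM, 20 in texAM, 1 in tAM and 38 in HostAM and are not sizes of effect.

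Leaving out single libraries touched the calls nearest the threshold. Against tAM, Irf1, Stat2, Ddx58, Dhx58, Ifit2, Ifitm3, Slfn1, Slfn5 and Cxcl10 kept their edgeR calls without each of the 8 libraries in turn. Without tAM replicate 1 the number called was 11 in place of 18, since Irf9, Ifih1, Zbp1, Gbp2, Rsad2, Rtp4 and Xaf1 lost their calls (edgeR adjusted p 0.0508 to 0.146). Without tAM replicate 2 Oasl1, Gbp2, Rtp4 and Xaf1 lost theirs (0.061 to 0.495). Without exAM replicate 1 the losses were Irf9, Zbp1, Oasl1, Rsad2, Rtp4 and Xaf1 (0.0518 to 0.186), without exAM replicate 2 Irf7, Irf9, Oasl1, Gbp2, Rtp4 and Xaf1 (0.0664 to 0.162), and without HostAM replicate 2 Oasl1 (0.0504). Against HostAM, the genes that lost a call without 1 library were Irf7, Irf9, Oasl1, Slfn1 and Isg20. Slfn1 lost it only without exAM replicate 2, which took out 5 calls (edgeR adjusted p 0.0536 to 0.216), while exAM replicate 1 took out 4 (0.0529 to 0.169), HostAM replicate 1 took out Irf7 and Isg20 (0.106 to 0.255), HostAM replicate 2 took out Irf7, Irf9 and Oasl1 (0.0507 to 0.138) and tAM replicate 2 took out Irf7 (0.051).

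Of the 40 genes, 19 were called in none of the 6 comparisons made between the 4 groups. They included the other oligoadenylate synthetases, which make the messenger that activates RNase L (Oas1a, Oas2 and Oas3, with their relative Oasl2), and Ifit1 and Ifit3, RNA-binding relatives of Ifit2. All 4 genes of the ISG15 system were among them: Isg15 itself, Usp18, the protease that removes ISG15 and restrains the receptor, Herc6, the ligase that attaches it in mice, and Trim25. So were Gbp3 and the GTPases Mx1 and Mx2, of which Mx1 is defective in most inbred mouse strains, the ADP-ribosylation proteins Parp9 and Parp14, and Slfn8, Ifi35, Ifi44 and Trim30a, a TRIM protein that restrains Toll-like receptor signals. In exAM against tAM, the genes not called had adjusted p of at least 0.0645 in edgeR, a value reached by Oas2, which averaged 3.67 ± 2.57 CPM in exAM and 10.3 ± 1.99 CPM in tAM (SD, n = 2). Some varied little in level between groups, such as Trim25 with 494 and 432 CPM in exAM, 377 and 419 CPM in texAM, 394 and 452 CPM in tAM, and 438 and 479 CPM in HostAM. Parp14, which modifies proteins with ADP-ribose, had 202 and 190 CPM in exAM, 189 and 182 CPM in texAM, 199 and 183 CPM in tAM, and 168 and 207 CPM in HostAM. Ifi44 was at 0 counts in exAM, 20 counts in texAM, 1 count in tAM and 38 counts in HostAM over both libraries of each. For some of these genes the counting may be uncertain. Of the 50-base stretches of the longest transcript, 57.6% in Oas1a, 51.2% in Ifit3 and 23.8% in Herc6 also occur in other genes, such as Oas1g for Oas1a and Ifit3b for Ifit3. Parp9 shares 458 bases with Dtx3l on the opposite strand, and whether strand was used in the counting is not given in the sources used here.

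Expanded cells after 4 months in the lung were compared with expanded cells that had not been transferred. In texAM against exAM, 12 of the 40 genes were called higher (30%) and 4 lower (10%), where 23.2% and 20.5% of all tested genes were called. The median log2 change was 0.32, against 0.11 over all tested genes, and remained 0.32 with Ifi44 set to its bound of at least 4.47-fold. Scaling by library size alone moved the median of all genes to 0.33, the share of higher genes among all calls to 68.1% in place of 53.1%, and the 40 genes to 15 higher and 2 lower. This comparison shares its exAM libraries with the comparisons above.

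The genes higher in texAM than in exAM were the regulators Irf1, Irf7 and Irf9, the sensors Ifih1, Ddx58 and Dhx58, and Oasl1, Gbp2, Ifitm3, Slfn1, Cxcl10 and Xaf1. Irf9 had 55.8 and 50.2 CPM in texAM, against 23.7 and 26.1 CPM in exAM, with no overlap, and a log2 change of 1.09 ± 0.23 (edgeR adjusted p = 0.00334). From the library values given above, Irf1 had a log2 change of 1.57 ± 0.20 (edgeR adjusted p = 0.000132) and Gbp2 of 1.25 ± 0.25 (adjusted p = 0.00235). Ddx58 had a log2 change of 0.79 ± 0.13 and Dhx58 of 1.05 ± 0.23 (edgeR adjusted p = 0.000877 and 0.00406). As ratios of counts, Slfn1 was 128-fold higher in texAM (95% counting interval 35.2 to 1060), Ifitm3 50.1-fold (16.9 to 245) and Cxcl10 27.7-fold (9.27 to 136). Stat2 and Zbp1 were not called, with log2 changes of 0.26 ± 0.10 and 0.74 ± 0.28 (edgeR adjusted p = 0.0621 and 0.0539).

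The genes lower in texAM than in exAM were Slfn5, Ifit2, Bst2 and Slfn2. Slfn5 averaged 24.8 ± 7.01 CPM in texAM, against 125 ± 1.57 CPM in exAM (SD, n = 2), a log2 change of -2.33 ± 0.26 (edgeR adjusted p = 6.67e-05). Ifit2 averaged 6.30 ± 4.39 CPM in texAM, against 24.3 ± 3.98 CPM in exAM, a log2 change of -1.94 ± 0.55 (adjusted p = 0.0159). Bst2, tetherin, which holds budding virions at the cell surface, averaged 17.7 ± 0.357 CPM in texAM, against 31.1 ± 6.21 CPM in exAM (log2 change -0.81 ± 0.24, edgeR adjusted p = 0.0203). Slfn2 averaged 127 ± 0.746 CPM in texAM and 165 ± 20.6 CPM in exAM (log2 change -0.38 ± 0.12, edgeR adjusted p = 0.0248). Its raw counts were not lower in texAM, with 1207 and 1114 against 1048 and 975 in exAM. Scaled by library size alone, Bst2 and Slfn2 both lost their calls, so these 2 calls depend on the scaling. Without texAM replicate 1 or without exAM replicate 1 the number called was 10 in place of 16, with Ifih1, Oasl1, Bst2, Slfn2 and Xaf1 lost in both, Irf7 in the first and Ifit2 in the other (edgeR adjusted p 0.0829 to 0.288 and 0.0832 to 0.166). Without texAM replicate 2 Ifit2, Bst2, Slfn2 and Xaf1 lost their calls (0.0601 to 0.0996), without exAM replicate 2 Irf7, Ifih1, Oasl1 and Xaf1 (0.0648 to 0.19), and without either tAM library Xaf1 (0.0525 and 0.0533).

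The lung groups were compared with each other to ask whether transferred expanded cells differed from resident cells and from transferred cells for which no expansion is named. In texAM against tAM, 0 of the 40 genes were called by edgeR, where 0.00688% of all tested genes were called higher and 0% lower. At an unadjusted p under 0.05 in edgeR there were 3 (Stat2, Rsad2 and Slfn5). The share of all genes at that threshold was not computed. The DESeq2 Wald test called 1, Slfn5, where it called 0.533% of all genes. Slfn5 differed by a log2 change of 1.47 ± 0.28, with 29.8 and 19.8 CPM in texAM against 9.05 and 8.90 CPM in tAM (edgeR unadjusted p = 0.000304, adjusted p = 0.26). The groups did not overlap, which was also so for many others of the 40 in this comparison. The edgeR call was not reached. The DESeq2 Wald test gave a log2 change of 1.46 with an adjusted p of 0.00086. Without the filter on low counts edgeR called 1.06% of all genes and gave Slfn5 an adjusted p of 2.32e-05. Rsad2 had a log2 change of 1.10 ± 0.46 and Stat2 of -0.28 ± 0.10 (edgeR adjusted p = 0.62 and 0.573). The median log2 change of the 40 was -0.08, against 0 over all genes.

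In texAM against HostAM, 0 of the 40 were called by edgeR, where 0.248% of all tested genes were called higher and 0.0825% lower. At an unadjusted p under 0.05 in edgeR there were 8. The share of all genes at that threshold was not computed, so the 8 cannot be weighed against it. The DESeq2 Wald test called 2.7% of all genes and 3 of the 40, which were Slfn5 (log2 change 1.22, adjusted p = 0.00311), Slfn1 (2.34, adjusted p = 0.0323) and Stat2 (-0.45, adjusted p = 0.0193). In edgeR, Slfn5 had a log2 change of 1.23 ± 0.27 (adjusted p = 0.101), Slfn1 of 2.36 ± 0.67 (adjusted p = 0.173) and Stat2 of -0.44 ± 0.10 (adjusted p = 0.107). Without HostAM replicate 2, edgeR called 0.579% of all genes, among them Slfn5 (log2 change 1.61, adjusted p = 0.0467) and Slfn1 (4.05, adjusted p = 0.036). Cxcl10 averaged 6.84 ± 2.43 CPM in texAM and 17.9 ± 9.07 CPM in HostAM (SD, n = 2). Isg15 averaged 3.18 ± 1.11 CPM in texAM and 8.13 ± 2.38 CPM in HostAM, and Isg20 averaged 10.5 ± 5.82 CPM in texAM and 26.7 ± 13.7 CPM in HostAM. None of these 3 was called by edgeR with the filter or by DESeq2. Without the filter on low counts edgeR called 4 genes, where 3.08% of all genes were called: Isg20 (log2 change -1.34, adjusted p = 0.0154), Stat2 (-0.45, adjusted p = 0.031), Slfn5 (1.23, adjusted p = 0.000277) and Slfn1 (2.35, adjusted p = 0.000277).

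In tAM against HostAM, 0 of the 40 were called by edgeR, where 0.0206% of all tested genes were called higher and 0.0206% lower. An unadjusted p under 0.05 in edgeR was found for 3, Cxcl10, Rsad2 and Ifi44, again without a computed share of all genes. The DESeq2 Wald test called 1, Cxcl10 (log2 change -2.12, adjusted p = 0.0463), where it called 1.39% of all genes. Without the filter on low counts edgeR also called Cxcl10 (adjusted p = 0.00597), among 1.89% of all genes. Cxcl10 had 5.11 and 3.13 CPM in tAM, against 11.5 and 24.3 CPM in HostAM, and a log2 change of -2.11 ± 0.53 in edgeR (adjusted p = 0.203). Its libraries did not overlap between these groups, and the HostAM libraries themselves were a good deal apart. The median log2 change of the 40 was -0.15 in this comparison and -0.13 in texAM against HostAM, against 0 over all genes in both. The comparisons between lung groups share libraries pairwise. A call that was not reached with 2 libraries a group does not show that the groups were alike. Nor does a lack of overlap between groups of 2 libraries show a difference, since many genes that were not called had it.

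The spread within groups was largest in HostAM. There 27 of the 40 genes were higher in replicate 2 than in replicate 1. The median difference (replicate 1 minus replicate 2) was -0.40 log2, against 0 over all tested genes. By more than 1 log2, 11 of the 40 (27.5%) differed, against 15.4% of all tested genes. Ifi44 (-3.23), Slfn1 (-2.27) and Ifit3 (-2.07) differed the most on this log2 scale. Oas2, Oasl2, Ifit2, Usp18, Mx2, Slfn8 and Cxcl10 were also higher in HostAM replicate 2 by more than 1 log2, while Isg20 was higher in replicate 1 (1.08). The summed lymphocyte markers were 23.1 CPM in HostAM replicate 1 and 88.6 CPM in replicate 2, and the summed monocyte markers 22.4 CPM in replicate 1 and 51.2 CPM in replicate 2. The summed dendritic cell markers were 156 CPM in replicate 1 and 244 CPM in replicate 2, with Flt3 at 8.6 and 29.8 CPM and Xcr1 at 2.09 and 15.8 CPM. The part of these cells' markers in the difference was not tested. In texAM, 26 of the 40 were higher in replicate 1, with a median difference of 0.13 log2, against 0.01 over all tested genes. There 8 (20%) differed by more than 1 log2, against 10.7% of all genes. In exAM and in tAM, 5 genes (12.5%) differed by that much, against 9.16% and 12.9% of all genes.

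**Figure D5:**
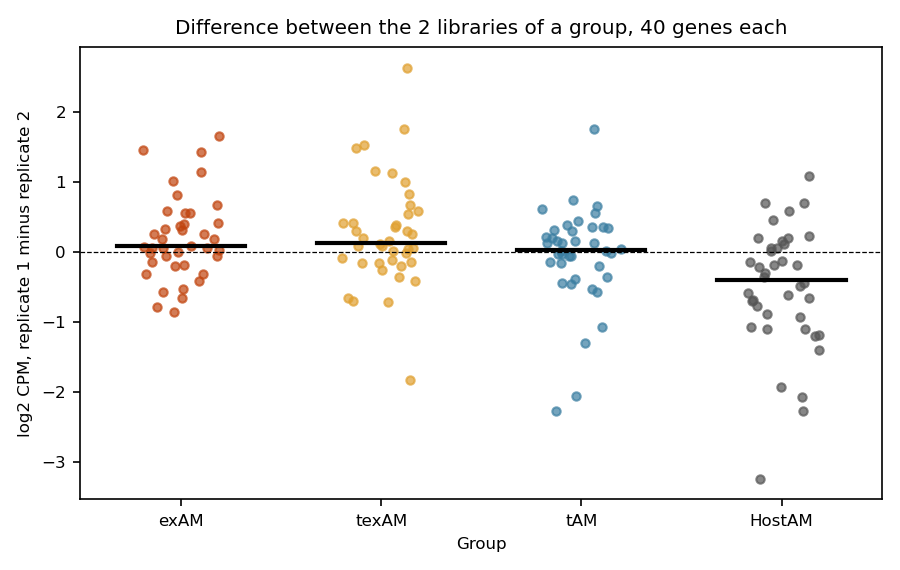
Difference between the 2 libraries of each group in log2 CPM (replicate 1 minus replicate 2) for each of the 40 genes; each point is a gene and the black line is the median. The median is -0.40 in HostAM, where most genes lie below 0, and 0.08, 0.13 and 0.03 in exAM, texAM and tAM.

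The genes that make and carry the interferon signal were counted by role from a wider list. The roles are small, and their counts stand beside 21.5% of all tested genes called higher and 23.2% lower in exAM against tAM, and 20.9% and 23.3% against HostAM, so that several lie near the share of all genes. Of 21 interferon genes listed as ligands, 11 were in the table, and 10 of these had 0 counts in every library, among them Ifnb1, which encodes interferon beta, and Ifng, which encodes interferon gamma. Ifnk, interferon kappa, was the only ligand tested, with 0.686 and 0.926 CPM in exAM, 4.59 and 4.79 CPM in texAM, 4.18 and 5.39 CPM in tAM, and 0.882 and 3.34 CPM in HostAM. It was low in exAM and in HostAM replicate 1, and its log2 change in exAM was -2.54 ± 0.77 against tAM (edgeR adjusted p = 0.0221); it was not called against HostAM. Of the 6 receptor genes, 3 rose and 1 fell in exAM against tAM. Ifnar1 and Ifnar2, the chains of the type I receptor, had log2 changes of 0.56 ± 0.15 and 0.50 ± 0.11 (edgeR adjusted p = 0.0114 and 0.00503), with 144 and 130 CPM for Ifnar1 in exAM against 83.3 and 102 CPM in tAM. Ifngr1, the ligand-binding chain of the type II receptor, had 105 and 82.0 CPM in exAM against 175 and 178 CPM in tAM, a log2 change of -0.91 ± 0.13 (edgeR adjusted p = 0.000354). Ifngr2, its partner chain, was not called (log2 change 0.08 ± 0.10, adjusted p = 0.547). Against HostAM, Ifnar2 rose (0.65 ± 0.11) and Ifngr1 fell (-0.95 ± 0.13), while Ifnar1, with a log2 change of 0.12 ± 0.15, was not called.

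Of the 8 genes listed for the JAK-STAT and IRF step, 1 rose and 4 fell in exAM against tAM, and 1 rose and 3 fell against HostAM. Jak1, a kinase of both receptor types, averaged 772 ± 63.8 CPM in exAM and 399 ± 18.8 CPM in tAM (SD, n = 2; log2 change 0.95 ± 0.09). Irf3, the factor that turns on Ifnb1 after RNA or DNA sensing, averaged 27.9 ± 4.82 CPM in exAM and 98.6 ± 9.39 CPM in tAM (log2 change -1.82 ± 0.21), and Irf5, a factor of Toll-like receptor signalling, had a log2 change of -1.47 ± 0.19. Of the 14 tested genes of sensing upstream of interferon, 3 rose and 5 fell against tAM, and 3 rose and 6 fell against HostAM. Against tAM, Tlr3, the endosomal receptor for double-stranded RNA, rose (1.30 ± 0.20), as did Ikbke, a kinase that activates IRF3 (1.28 ± 0.22), while Tlr9, the receptor for CpG DNA, and Sting1, the adaptor of cytosolic DNA sensing, fell (-3.38 ± 0.60 and -0.69 ± 0.20). Ikbke was not called against HostAM, with 35.5 CPM on average in exAM and 42.2 CPM in HostAM (log2 change -0.25 ± 0.21, edgeR adjusted p = 0.359). Of 10 inhibitors, 3 rose and 3 fell against tAM, and 1 rose and 3 fell against HostAM, led against tAM by Socs3, which blocks JAK kinases (1.37 ± 0.27), and the phosphatase Ptpn2 (0.81 ± 0.25) among those that rose, and by the phosphatase Ptpn6 (-1.27 ± 0.09) and the mitochondrial protein Nlrx1 (-1.26 ± 0.15) among those that fell. Ptpn2 was not called against HostAM (log2 change 0.49 ± 0.25, edgeR adjusted p = 0.136).

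Of 46 tested interferon-stimulated genes outside the 40, 6 rose and 18 fell in exAM against tAM, where 21.5% of all tested genes were called higher and 23.2% lower. Against HostAM 7 rose and 15 fell, where the shares of all genes were 20.9% and 23.3%. Cxcl9, a chemokine for the receptor of Cxcl10, had 0 counts in both exAM libraries, 12.9 and 18.0 CPM in texAM, 17.1 and 23.7 CPM in tAM, and 9.48 and 15.5 CPM in HostAM. Against a floor of 3 counts over the group it was at least 83.1-fold lower in exAM than in tAM and at least 51.1-fold lower than in HostAM. Gbp4, a guanylate-binding GTPase, was likewise at 0 counts in exAM, at least 27.7-fold lower than in tAM and at least 21.7-fold lower than in HostAM. The DNA-binding protein Ifi204 had the largest rise (1.18 ± 0.30 against tAM), followed by Pml, which organises nuclear bodies (0.82 ± 0.19). In the comparisons between lung groups, 0 genes of these 6 lists were called by edgeR.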

How the data were processed

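Reads per gene in 8 libraries were deposited as whole-number counts for 37310 genes, raw and not normalised. The submitters' processing notes name Bowtie, HTSeq 0.6.1, R 3.3 and the build mm10, without parameters. The counts were tested with edgeR 4.0.16 in R 4.3.3: filterByExpr with a minimum of 10 counts (14537 genes), TMM scaling, a robust quasi-likelihood fit of all 8 libraries with 4 residual degrees of freedom (biological coefficient of variation 0.22), and Benjamini-Hochberg adjustment over all tested genes, with calls under 0.05. CPM used the effective library sizes. A group at 0 counts was set to 3 counts for a bound. The script was tested on simulated data. DESeq2 1.42.0 gave the size factors and the Wald test among the alternatives, and the others used edgeR. The pairing check was a correlation of replicate differences in log2 CPM.

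Library totals of 6546272 to 9154128 counts leave few reads for the lowest genes, and cDNA amplification without molecular identifiers means that counting intervals cover counting error only. No more than 2 of the 40 genes (Trim25 and Slfn2) exceeded 0.5 counts per base of transcript in any library. Coordinates and lengths are from GENCODE M21 (GRCm38), promoters from RefSeq (GRCm38.p6).

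The 40 genes, the wider lists and the markers were chosen with earlier results of these data known. Values in every library are given for genes called between lung groups (none was) and for the 12 largest called changes of exAM against tAM or HostAM; genes outside this rule are marked where they are given in full, and some further genes were given so as examples after their values were seen. In the wider lists the 2 largest called changes per role and direction are named, with Ifnk and the chains of the type I and II receptors; a gene that the rule also names is not reported here. No pairing by replicate number was seen, as the correlation of replicate differences between groups was -0.06 to 0.01. A correlation over all tested genes cannot exclude that libraries of one number shared mice.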

Additional observations from a re-analysis of the deposited data

How the results depend on the processing

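The number of the 40 genes called was recomputed under each alternative. It was 11 to 20 for exAM against tAM (18 as reported), 13 to 20 for exAM against HostAM (17) and 10 to 20 for texAM against exAM (16). Leaving out 1 library at a time gave 11 to 20, 13 to 19 and 10 to 17 for these, 0 to 2 for texAM against HostAM, and 0 to 0 for texAM against tAM and for tAM against HostAM. Without the filter on low counts, 1 gene was called in texAM against tAM, 4 in texAM against HostAM and 1 in tAM against HostAM; over all genes 238, 694 and 425 were then called, against 1, 48 and 6 as reported. The DESeq2 Wald test called 1, 3 and 1 of the 40 and 73, 385 and 190 of all genes, with no adjusted p for 2, 1 and 2 of the 40. The cause of these differences was not tested. With the replicate number as a block, 17, 16, 15, 0, 0 and 0 genes were called. The order is exAM against tAM, exAM against HostAM, texAM against exAM, texAM against tAM, texAM against HostAM and tAM against HostAM. No pairing by these numbers was seen, which does not show that the libraries were unpaired. Of 864 recomputed values of the 51 called gene changes, 780 kept their call, 84 kept their direction but lost it, and 0 reversed. Groups of 2 libraries, and 39 to 59 counts in all for Mx2 and Ifi44, limit what could be called.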
